A study of Mus musculus with 5 samples.

Results

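The cartilage collagen genes are the 6 mouse genes Col2a1, Col9a1, Col9a2, Col9a3, Col11a1 and Col11a2, which encode the chains of collagen types II, IX and XI. They were chosen by gene name, and every probe set annotated to 1 of these symbols alone was read, which gave 10 of the 34945 probe sets that carry a single symbol. Counted as genes they are 6 of 18193, and all 6 were among the 11075 genes bright enough to be measured. Transcripts were followed in primary rib chondrocytes, the cells that make cartilage, from FVB mouse embryos of gestational day 18.5. The groups were days 2, 6, 9, 12 and 15 of culture, with 1 single-colour array per day and the same medium throughout, which held serum, ascorbic acid and beta-glycerophosphate. The cells came from enzyme-digested rib cages, so other cells of the rib cage could be present, and the labels do not say whether the 5 dishes shared a cell isolate.

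Cartilage gets its tensile strength from thin fibrils in which these collagens are built together. Type II collagen, made of identical chains from Col2a1, forms the bulk of the fibril. Type XI collagen lies in its core and is needed to start and size the fibril, and its chains come from Col11a1, Col11a2 and Col2a1 itself. Type IX collagen sits on the fibril surface as a heterotrimer of the Col9a1, Col9a2 and Col9a3 products. The transcription factor SOX9, with its partners SOX5 and SOX6, is known to drive these genes in chondrocytes.

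Values are probe set intensities on a linear scale, as deposited. All 5 arrays had a trimmed mean of 500 (2% cut from either end), so they shared a scale. Values under 73.1 were raised to that floor before folds were taken, and a gene is given by its brightest probe set unless another is named. Median intensity lay between 106 and 118 on the 5 arrays. All 8 chondrocyte markers (Col2a1, Col9a1, Col11a2, Acan, Sox9, Matn1, Matn3 and Hapln1) were above the floor on all 5 arrays, the lowest value being 213 for Matn1. With 1 array per day a difference between 2 days has no replicate error and no test. How far 2 probe sets of a gene differ gives a measure of error: the SD of the day 15 minus day 2 log2 difference of one was 0.60 among 3013 genes with 2 probe sets, and 0.32 among the 557 of them in which both reached a mean of 1000. Variation between dishes or arrays is not in those SDs.

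All 6 genes were lower late in culture than early. The values of days 12 and 15 both lay 2-fold or more under the values of both day 2 and day 6 in 6 of 6 genes, so early and late arrays did not overlap for any of them. Of all genes measured, 1.39% did the same. This pattern was not a planned comparison. The second probe set of Col11a1 did not meet it, at 1.87-fold and 1.93-fold under day 6 on days 12 and 15. Day 6 as the baseline was added after the data were seen. Taken one at a time against day 6, 6 of 6 were 2-fold or more lower on day 15, with 6.16% of all genes. On day 12 it was 6 of 6, with 4.97%. With days 12 and 15 averaged and set against the average of days 2 and 6, it was 6 of 6 and 5.62%. The 6 genes were 2.54-fold to 6.80-fold lower on day 15 than on day 2, where 11.6% of all genes were 2-fold or more lower. They were 2.65-fold to 7.28-fold lower on day 12 than on day 2, against a share of 11.4% of all genes. The median log2 difference of the 6 was -1.43 on day 15 and -1.90 on day 12, and that of all genes was 0.00 on both days. In RNA from whole cultures, fewer chondrocytes and less collagen RNA per chondrocyte cannot be told apart.

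**Figure D1:**
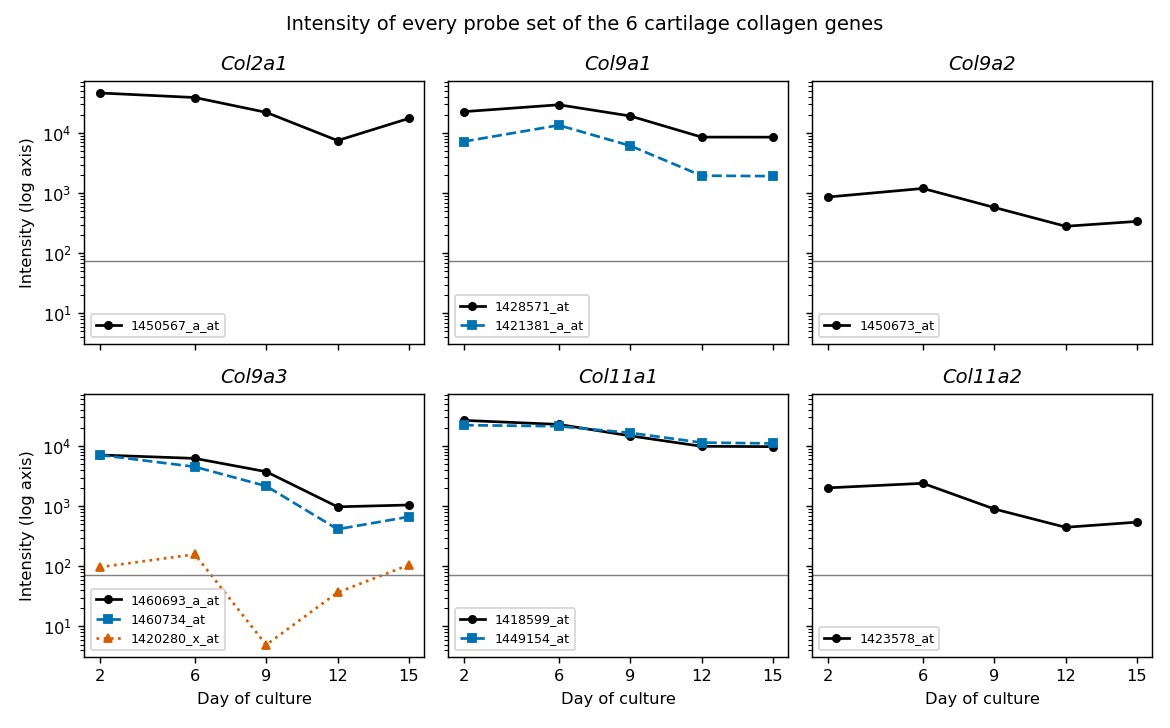
Intensity (log axis) of each of the 10 probe sets against day of culture, 1 panel per gene and 1 array per day; the grey line is the floor of 73.1. Solid black is a gene's brightest probe set, and all but the dimmest probe set of Col9a3 are lower on days 12 and 15 than on days 2 and 6.

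Col2a1, the gene of type II collagen, had intensities of 46505, 39067, 22143, 7510 and 17566 on days 2, 6, 9, 12 and 15. Its lowest array was day 12, at which it was 6.19-fold lower than on day 2, and its day 15 value lay between those of days 9 and 12. On day 15 it was 2.34-fold higher than on day 12, and it was the 1 gene of the 6 that was 2-fold or more higher over that step, against 4.23% of all genes. Between these days the log2 difference was 1.23, where the SD of a bright probe set was 0.20. That SD leaves out variation between dishes or arrays, and the difference was not tested. Col2a1 had a single probe set, so no second one could be set beside it. Its day 2 value was below the array's highest value of 76653, which cannot show whether its probes were near saturation.

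The type XI chains are the partners of type II collagen in the fibril core. Col11a1 had 26826, 22971, 14820, 9928 and 9802 on days 2, 6, 9, 12 and 15. Its second probe set had 22354, 21383, 16621, 11454 and 11081. Both were lower on each array than on the one before it, and both were level between days 12 and 15, with log2 differences of -0.02 and -0.05. By the brightest probe set Col11a1 was 2.74-fold lower on day 15 than on day 2, and by the second 2.02-fold. On day 12 the second probe set was 1.95-fold lower than on day 2, just under the 2-fold threshold, and against day 6 it was 1.87-fold lower on day 12 and 1.93-fold lower on day 15.

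Col11a2, the other chain particular to type XI, had 2021, 2405, 900, 446 and 543 on the 5 days. Day 6 was its highest array. Most of its difference came between days 6 and 9, where it was 2.67-fold lower, the widest gap of the 6 genes for that step. On day 15 it was 3.72-fold lower than on day 2, and 1.22-fold higher than on day 12. Over the 5 arrays Col11a2 had a steeper fitted slope than Col11a1, at -0.19 ± 0.05 against -0.13 ± 0.02 log2 units per day (SE from limma, 5 arrays), and this difference was not tested.

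The start regions of 3 of these genes are shown because they are promoters of genes that were lower together on days 12 and 15. RefSeq promoter windows of build GRCm38.p6, from 250 bases before to 50 after a transcript start, were available for 4 of the 6 genes in 5 windows, 2 of them for Col9a1, which has an upstream and a downstream start. The printed part, 5′ to 3′ on the + strand, ends at the base before the first annotated base of the gene where that lies in the window, and otherwise at the base before the start. Capitals mark the letters CAAAG or CAATG, a short core of SOX protein binding sites, and the GC box GGGCGG, each on either strand. No motifs overlap in the printed letters.
Col9a1 upstream start, chr1:24177360-24177588: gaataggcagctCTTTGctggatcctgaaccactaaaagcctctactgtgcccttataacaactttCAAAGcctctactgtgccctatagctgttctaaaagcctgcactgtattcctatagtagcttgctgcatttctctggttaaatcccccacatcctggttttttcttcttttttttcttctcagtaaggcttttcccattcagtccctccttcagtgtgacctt
Col9a1 downstream start, chr1:24194953-24195202: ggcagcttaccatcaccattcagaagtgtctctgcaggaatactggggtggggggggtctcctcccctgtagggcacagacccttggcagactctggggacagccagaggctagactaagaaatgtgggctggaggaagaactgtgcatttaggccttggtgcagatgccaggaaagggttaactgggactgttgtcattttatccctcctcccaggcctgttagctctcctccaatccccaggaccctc
Col9a2, chr4:121039316-121039565: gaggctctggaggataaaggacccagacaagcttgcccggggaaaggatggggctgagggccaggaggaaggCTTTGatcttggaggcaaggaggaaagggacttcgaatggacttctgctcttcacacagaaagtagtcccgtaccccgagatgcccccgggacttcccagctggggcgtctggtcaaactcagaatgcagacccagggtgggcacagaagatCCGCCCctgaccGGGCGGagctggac
Col11a1, chr3:114030290-114030478: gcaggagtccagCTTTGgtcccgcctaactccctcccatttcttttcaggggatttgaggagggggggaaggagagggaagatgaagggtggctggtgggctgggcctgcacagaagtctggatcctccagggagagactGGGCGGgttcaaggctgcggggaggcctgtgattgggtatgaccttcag
The upstream Col9a1 window held CAAAG at -184 and, on the opposite strand, at -238, counted from the transcript start to the leftmost base of the match. The downstream one held neither SOX core nor GC box. The Col9a2 window held the SOX core at -178 and GC boxes at -26 and -14 in the printed part. The Col11a1 window held the SOX core at -238 and, in the printed part, a GC box at -110. The fifth window, of Col11a2, held the SOX core at -240 and -170 and GC boxes at -133 and -38. Of 32851 windows of this length in the table, 70.3% held the SOX core and 35.7% the GC box, so these matches are a description of the letters and no measure of binding.

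Col9a1, the first chain of type IX collagen, had 22717, 29589, 19252, 8582 and 8559 on the 5 days. Its second probe set had 7242, 13512, 6160, 1956 and 1922. Day 6 was the highest array and days 12 and 15 the lowest by both. The 2 probe sets differed in the depth of the difference: on day 15 the brightest was 2.65-fold and the second 3.77-fold lower than on day 2, and 3.46-fold and 7.03-fold lower than on day 6. Which of the 2 starts each probe set reads was not determined here.

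Col9a2, the second chain, had 863, 1200, 579, 282 and 340 in order of day, from its single probe set. It too was highest on day 6, 1.39-fold over day 2, and lowest on day 12. On day 15 it was 2.54-fold lower than on day 2 and 3.53-fold lower than on day 6.

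Col9a3, the third chain, had 7123, 6251, 3758, 978 and 1048 on the 5 days. Its second probe set had 7133, 4527, 2164, 415 and 667. Unlike Col9a1 and Col9a2, it was highest on day 2 by both, and its difference on day 12 was the widest of the 6 genes. By the brightest probe set it was 7.28-fold lower on day 12 and 6.80-fold lower on day 15 than on day 2, and by the second 17.2-fold and 10.7-fold. The third probe set, of a class that may bind other transcripts, had 96.9, 158, 4.94, 36.8 and 105.6, lay under the floor on 2 arrays and did not pass the intensity filter. The 3 chains of the type IX heterotrimer had log2 differences between days 12 and 2 of -1.40, -1.62 and -2.86 for Col9a1, Col9a2 and Col9a3, and the differences among them were not tested.

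**Figure D2:**
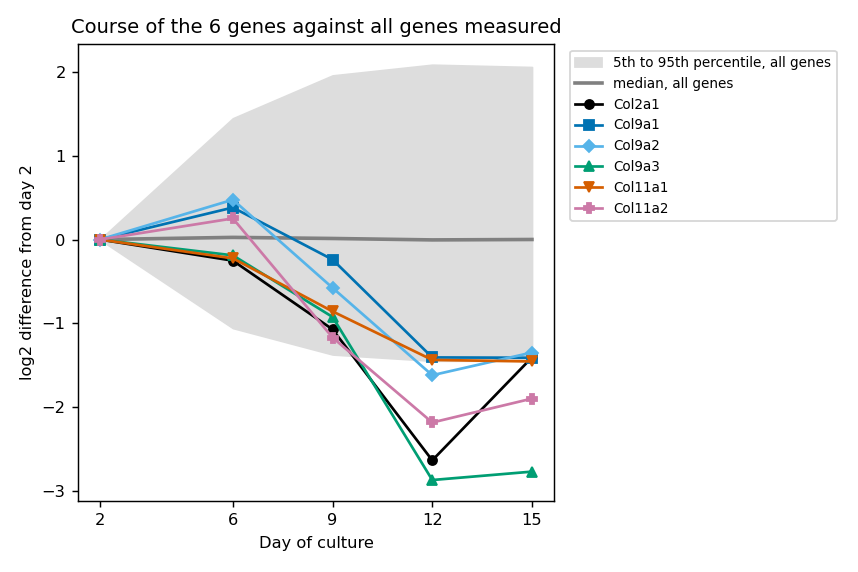
Log2 difference from day 2 against day of culture, for each of the 6 genes by its brightest probe set (coloured lines, 1 array per day); grey marks the median and the 5th to 95th percentile of 11075 genes. The 6 genes lie between -0.25 and 0.47 on day 6 and between -2.86 and -1.40 on day 12, when the median of all genes was 0.00.

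The course had distinct steps. From day 2 to day 6 no gene of the 6 passed 2-fold, where 10.2% of all genes were 2-fold or more higher and 5.7% 2-fold or more lower. Col9a1, Col9a2 and Col11a2 were 1.30-fold, 1.39-fold and 1.19-fold higher on day 6, while Col2a1, Col9a3 and Col11a1 were 1.19-fold, 1.14-fold and 1.17-fold lower. The SD of a probe set over this step was 0.56, and 0.28 for bright ones. The log2 difference of Col2a1 was -0.25, and 0.00 after quantile normalization. By day 9, 2 of 6, Col2a1 and Col11a2, were 2-fold or more lower than on day 2, against 10.3% of all genes. From day 6 to day 9 all 6 were lower, and 2 of 6, Col9a2 and Col11a2, passed 2-fold, against 4.06% of all genes.

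The median log2 difference of the 6 was -0.78 from day 6 to day 9 and -1.10 from day 9 to day 12, where that of all genes was -0.01 and -0.00. All 6 genes were lower on day 12 than on day 9, and 5 of 6 passed 2-fold, while only 1.51% of all genes did. Col9a3 was 3.84-fold lower, Col2a1 2.95-fold, Col9a1 2.24-fold, Col9a2 2.06-fold, Col11a2 2.02-fold and Col11a1 1.49-fold. Col9a2 and Col11a2 thus stood just past the threshold. From day 12 to day 15 the genes parted: Col2a1 was 2.34-fold higher on day 15, Col9a2 and Col11a2 were 1.21-fold and 1.22-fold higher, and Col9a1, Col9a3 and Col11a1 had log2 differences of 0.00, 0.10 and -0.02. None was 2-fold lower, as 3.92% of all genes were. The second probe set of Col9a3 was 1.61-fold higher on day 15.

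**Figure D3:**
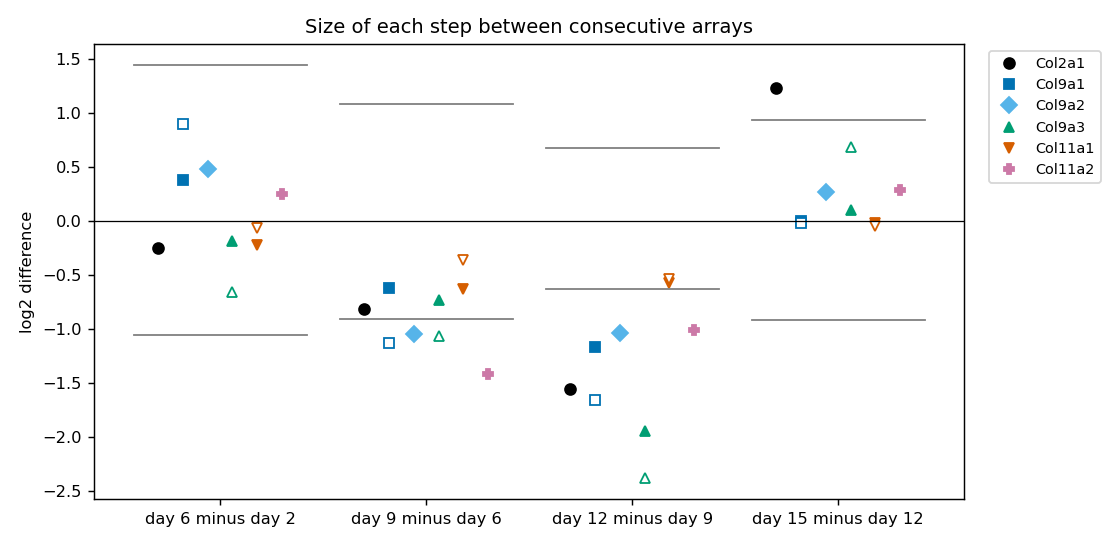
Log2 difference over each step between consecutive arrays, with filled symbols for a gene's brightest probe set and open ones for its second; grey bars mark the 5th and 95th percentiles of 11075 genes. Between days 9 and 12 all genes except Col11a1 lie under the 5th percentile of -0.63, and between days 12 and 15 Col2a1 alone lies over the 95th percentile of 0.93.

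A straight line of log2 intensity on day was fitted to the 5 arrays for all 11075 genes with limma. All 6 slopes were negative, from -0.25 ± 0.05 log2 units per day for Col9a3 to -0.13 ± 0.02 for Col11a1 (SE, 5 arrays). After Benjamini-Hochberg adjustment over all genes none of the 6 passed 0.05 in limma. The adjusted p was 0.0734 for Col9a3 and Col11a1, 0.0887 for Col11a2, 0.108 for Col9a1, 0.118 for Col9a2 and 0.146 for Col2a1, and 6 of all 11075 genes passed, 0.0542%. At an unadjusted p under 0.05 all 6 were counted, among 27.1% of all genes. The higher value of Col2a1 on day 15 than on day 12 and the day 6 maxima of Col9a1, Col9a2 and Col11a2 are departures from a line.

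Likeness of course was measured as the root mean square distance between log2 courses, each centred on its own mean over the 5 arrays. The closest of the 15 pairs was Col9a1 and Col9a2 at 0.17 log2 units, and the farthest Col9a3 and Col11a1 at 0.67. The courses were not scaled, so this distance takes in depth as well as shape. Pearson r over the 5 arrays was 0.97 for Col9a3 and Col11a1. It was lowest for Col2a1 and Col9a1, at 0.86, a pair 0.48 log2 units apart. Col9a2 ranked 6th nearest to Col9a1 among 11074 genes. Other members stood farther apart: the nearest member to Col2a1 was Col11a2, ranked 24th, and the nearest to Col11a1 was Col9a1, ranked 376th. Col11a1 had 438 genes within 0.3 log2 units of it, while Col9a3 had 1 and Col2a1 had 9. Of the 6 genes Col11a1 had the shallowest fitted slope, at -0.13 log2 units per day, and Col9a3 the steepest, at -0.25. These counts depend on the depth of a course, so they do not show how common its shape was. The arrays share their scaling, so these distances describe 5 libraries.

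The gene with the course nearest to Col2a1 was C1qtnf3, a secreted protein of the C1q family found in cartilage, at 0.17 log2 units, with 9335, 9235, 5358, 2197 and 4317 in order of day. Next came Ppp1r15a, a stress-induced phosphatase subunit, at 0.22 and Vps37b, of the endosomal sorting machinery, at 0.23. Both, like Col2a1, had their lowest array on day 12, where Vps37b was under the floor. For Col9a1 the nearest were Zscan10, Adgrg6 and Pou3f3, for Col9a2 Adgrg6, Gna14 and Tlx2, and for Col9a3 the transcript 4930452G13Rik, Zap70 and the cartilage link protein gene Hapln1. Of these, 4930452G13Rik and Zap70 were under the floor on 2 arrays each, and Zscan10, Gna14 and Tlx2 on 1, so the floor set part of their likeness. For Col11a1 they were Sv2b, Tmem209 and Nim1k, and for Col11a2 Extl1, the sulfate transporter gene Slc26a2 and Bdh1. Sv2b was under the floor on days 12 and 15, at 59.4 and 23.6, and Extl1 on day 12, at 66.5, so their late match was set by the floor. Tmem209, above it throughout, had 1475, 1124, 733, 541 and 524. Adgrg6, an adhesion receptor gene, had 1056, 1309, 769, 412 and 440. To the mean course of all 6 the nearest 8 genes were Ints1, Colgalt2, Cubn, Slc26a2, Tlx2, Eef1aknmt, Pou3f3 and Zscan10, at 0.14 to 0.22. Colgalt2 encodes an enzyme that adds galactose to collagen. Of these 8 genes 5 were under the floor on at least 1 array, so their values there are bounds. Slc26a2, with 2474, 2808, 1052, 661 and 714, was above it throughout.

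Of the SOX factors that act on these genes, Sox9 and Sox6 were lower by more than 2-fold late in culture. Sox9 had 4269, 2634, 1652, 1157 and 1291 in order of day and was 3.69-fold lower on day 12 than on day 2. The log2 difference of Sox9 on day 6 from day 2 was -0.70, where the 6 collagen genes lay between -0.25 and 0.47. The SD of a bright probe set over this step was 0.28, without variation between dishes or arrays, and this contrast was not tested. Sox6 was 3.19-fold lower on day 15 (4.19-fold by a second probe set), and Sox5 1.33-fold (2.16-fold by a second). Of 12 measured members of the list of SOX factors and cofactors, 4 were 2-fold or more lower on day 15 than on day 2 and 3 as much higher, where 11.6% of all genes were lower and 16.2% higher. The median log2 difference was -0.09. Centring each array on its median left 2 lower and turned the median to 0.05. Among genes of SOX9 cofactors, Arid5a was 2.90-fold higher and Zfp219, under the floor on day 2, at least 3.76-fold higher. Wwp2, a ubiquitin ligase gene named after its values were seen, had 5110, 4798, 2166, 1186 and 2388. Like Col2a1 it was lowest on day 12, and it was 2.01-fold higher on day 15 than on day 12.

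Other matrix genes of cartilage divided. Of 18 measured partners of the fibril 6 were 2-fold or more lower and 8 as much higher on day 15 than on day 2, against 11.6% and 16.2% of all genes, with a median of 0.10. Acan, which encodes the proteoglycan aggrecan, had 19492, 11052, 2092, 723 and 2328. Its lowest array was day 12, as for Col2a1, and it was 3.22-fold higher on day 15 than on day 12. Hapln1, whose product ties aggrecan to hyaluronan, was 4.60-fold lower on day 15 than on day 2 (2.75-fold by a second probe set). Col10a1, the type X collagen gene of hypertrophic cartilage, had 4800, 228, 35.1, 270 and 1686, so its lowest array, under the floor, was day 9 and not day 12. The matrilins, which bridge collagen fibrils to other matrix, differed among themselves. On day 15 against day 2 Matn3 was 1.31-fold lower, Matn1 3.50-fold higher and Matn2 10.6-fold higher. Matn3 too had its lowest array on day 12, 2.28-fold under day 2. From day 9 to day 12 Matn1 went from 2255 to 874, and Matn2 from 1453 to 1889. Comp, a protein that binds collagen types II and IX, was 15.1-fold higher, at 12248 on day 15 against 813 on day 2. Prg4, the lubricin gene, was at least 9.03-fold higher.

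Collagen genes of other tissues ran the opposite way in most cases. Of 8 measured fibrillar collagen genes outside the cartilage set 7 were 2-fold or more higher on day 15 than on day 2, against 16.2% of all genes, with a median of 2.52. Col1a1, Col3a1 and Col1a2, of bone and fibrous tissue, were 116-fold, 85.5-fold and 80.4-fold higher (12.5-fold, 98.2-fold and 62.6-fold by a second probe set). Type V collagen has the place of type XI in fibrils outside cartilage, and its chains can join those of type XI. Col5a1 had 1099, 4555, 5484, 7623 and 11816, 10.75-fold higher on day 15 than on day 2 (6.98-fold by a second probe set), beside Col11a1 at 2.74-fold lower (2.02-fold by its second). Col5a2 was 2.19-fold higher (3.20-fold by a second probe set). The exception was Col27a1, a fibrillar collagen gene that cartilage also uses, which had 1990, 2198, 1492, 983 and 648 and was 3.07-fold lower (1.98-fold by a second probe set). It was lower still on day 15 than on day 12, with a log2 difference of -0.60.

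Collagens that coat fibrils as type IX does were measured in 4 of 7 list members. Col12a1 was 18.8-fold higher on day 15 than on day 2 and Col14a1 at least 6.91-fold higher (7.48-fold and 2.24-fold by a second probe set), both being fibril-associated collagens of tendon and skin. Col22a1 and Col16a1 were 1.48-fold and 1.21-fold higher. Of the 4, 2 were 2-fold or more higher on day 15 than on day 2, against 16.2% of all genes. None was 2-fold lower, a count near the share of 11.6% of all genes.

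**Figure D4:**
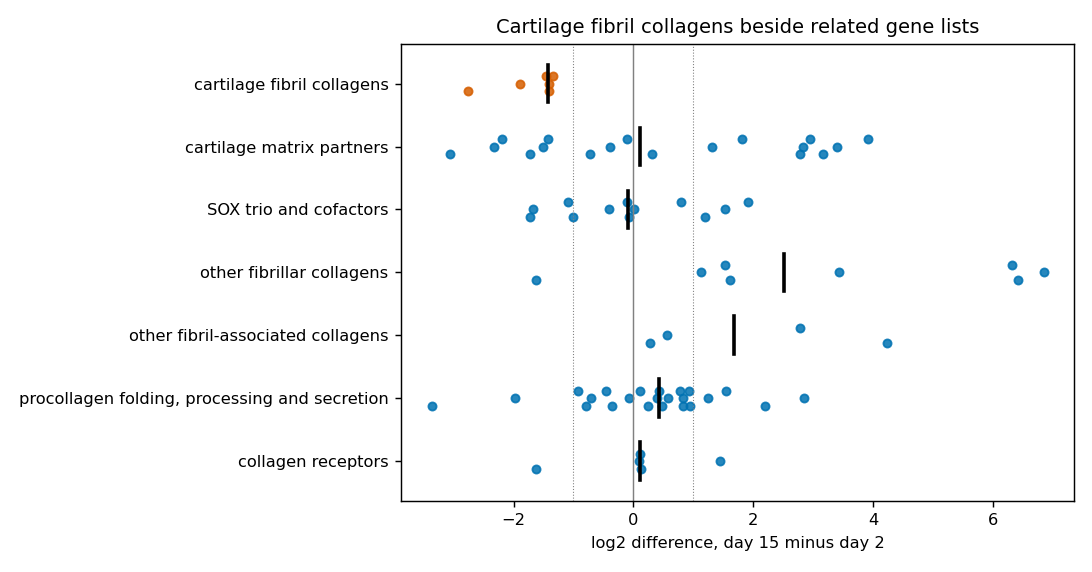
Log2 difference between day 15 and day 2 for each measured gene (points, by brightest probe set) of 7 gene lists, with list medians as black bars and dotted lines at 2-fold. The 6 cartilage fibril collagens all lie to the left of -1, while 7 of 8 other fibrillar collagens lie to the right of 1.

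Of 23 measured genes that fold, process and secrete procollagen, 2 were 2-fold or more lower and 4 as much higher on day 15 than on day 2. These are shares near those of all genes, 11.6% lower and 16.2% higher. After median centring 6 were higher, and the share of all genes higher under that setting is not given here. The list's median was 0.42. Pcolce2, an enhancer of procollagen C-propeptide removal, had 13222, 3344, 2549, 1508 and 1280 and was 10.3-fold lower on day 15. P3h2, a prolyl 3-hydroxylase gene, was 3.92-fold lower, while its relative P3h3 was 4.60-fold and the crosslinking enzyme gene Lox 7.22-fold higher. From day 12 to day 15, the step at which Col2a1 was 2.34-fold higher, 5 of 23 were 2-fold or more higher and 0 lower, against 4.23% and 3.92% of all genes. Among collagen receptors Itga10, an integrin subunit of chondrocytes that binds type II collagen, had 331, 107, 236, 258 and 107, Itga1 was 2.74-fold higher on day 15 than on day 2 (1.63-fold by a second probe set), and Ddr2 was 1.09-fold higher. The probe sets of Ddr1 disagreed, the brightest being 1.08-fold higher and the second 2.73-fold lower.

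Markers of other cell types differed over the same days, and the genes that carry each list's sum are named after their values were seen. All 5 measured osteoblast markers (of 8) were 2-fold or more higher on day 15 than on day 2, against 16.2% of all genes. Their summed intensity was 570, 1190, 15728, 30992 and 43143 in order of day, most of it from Ibsp, the bone sialoprotein gene, with 35026 on day 15. Of 7 measured fibroblast markers (of 8) 5 were 2-fold or more higher on day 15 than on day 2, against 16.2% of all genes. The median log2 difference of the 7 was 3.74. The sums of the 8, 72677 on day 15 and 35961 on day 2, hold S100a4, which had 30028 on day 15 and 30340 on day 2. Lum, which encodes the matrix proteoglycan lumican, had 24336 on day 15 and 1384 on day 2.

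Of 6 measured adipocyte markers (of 8) 4 were 2-fold or more higher on day 15 than on day 2, against 16.2% of all genes. From day 12 to day 15, 4 of these 6 were 2-fold or more lower, against 3.92% of all genes. The 7 with a probe set summed to 2083, 3582, 27789, 64443 and 34832, mostly from the fatty acid binding protein gene Fabp4 and the adiponectin gene Adipoq. The sum was highest on day 12, the array on which Col2a1, Col9a2, Col9a3 and Col11a2 were lowest. Of 6 measured macrophage and osteoclast markers (of 8) 2 were 2-fold or more higher on day 15 than on day 2 and 1 as much lower. The shares of all genes were 16.2% and 11.6%, and the median log2 difference of the 6 was 0.12. The sums of the 8, 6453 on day 15 and 2430 on day 2, differ through Ctsk, the cathepsin K gene of osteoclasts, which had 5190 on day 15 and 1010 on day 2, while Cd14 was 3.49-fold lower. Of 3 measured epithelial markers (of 5) 2 were 2-fold or more lower on day 15 than on day 2, against 11.6% of all genes. The sums of the 5, 539 on day 15 and 2551 on day 2, differ mainly through the keratin gene Krt18, with 103 on day 15 and 2052 on day 2, and Epcam was 1.32-fold higher. None of the 6 endothelial markers passed the intensity filter, and Pecam1 and Vwf were under the floor on all 5 arrays. Of 6 skeletal muscle markers 1 passed, Acta1, which was 1.25-fold higher on day 15 than on day 2. The part of these cells in the collagen differences was not tested.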

How the data were processed

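The authors deposited 1 linear intensity per probe set and array, and the submitters' processing notes name MAS5. Its version is not given in the sources used here. Of 45101 probe sets, 34945 carried 1 gene symbol, 932 several, 9160 none and 64 were controls. Symbols were updated by gene ID through RefSeq GRCm38.p6 names. Intensities under the 40th percentile, 73.1, were set to it and log2 was taken. A gene was kept where its brightest probe set averaged at least 105.93 over the arrays, the median of all probe sets, which left 11075 genes. The linear trend used limma 3.58.1 in R 4.3.3 (lmFit, eBayes, two-sided, Benjamini-Hochberg, checked on simulated data). Other steps used Python 3.11.15, pandas 2.3.3 and numpy 2.4.6. The number of arrays limits the precision. Scaling each array to a common mean hides any shift shared by most transcripts.

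The 6 genes, the gene lists, the tests and the alternatives were chosen with earlier results of these data known. Genes named outside the 6 were the 4 of each list with the largest difference between days 15 and 2, well known genes of cartilage, collagen and its receptors, the 8 genes nearest to the mean course and the 3 nearest to each gene. "At least" marks a gene whose lower day was under the floor.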

Additional observations from a re-analysis of the deposited data

How the results depend on the processing

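All 6 genes stayed 2-fold or more lower on day 15 than on day 2 under each of 11 alternatives: quantile normalization, median centring, a floor at the 20th or 60th percentile, a pseudocount, the mean over probe sets, the second probe set, no filter, a filter at the 70th percentile, days 12 and 15 pooled against days 2 and 6, and day 6 in place of day 2 (added after the data were seen). On day 12 this held for all but the second probe set of Col11a1. The count over days 12 to 15 stayed at 1, and that over days 2 to 6 at 0. The floor and filter settings left the values of the 6 genes unchanged, so they could not alter these counts. The probe set settings could change only Col9a1, Col9a3 and Col11a1, as the others have a single probe set. The share of all genes 2-fold or more lower in the day 15 comparison ran from 5.62% to 12.0% over the 11 alternatives. The values of Col9a3 moved with the probe set: its log2 difference from day 2 was -4.10 on day 12 and -3.42 on day 15 with the second, and -2.46 and -2.02 with the mean over probe sets, against -2.86 and -2.76 with the brightest. That mean took in the third probe set, which did not pass the intensity filter and lay under the floor on 2 arrays, so it understates the difference of the other 2. Median centring raised the median of all genes on day 15 by 0.14. The count of genes with a trend was 0 in limma under all settings except the filter at the 70th percentile, where it was 1, Col11a1 with an adjusted p of 0.0493 over 7806 genes. With that filter 204 of all genes, 2.61%, passed, against 0.0542% with the filter at the median. Over all alternatives that value of Col11a1 ran from 0.0493 to 0.299. With any 1 array left out the count was 0, but 0 of all 11075 genes passed in those fits, so they say nothing about the 6. Of all genes 0 also passed with the floor at the 60th percentile, the second probe set or no filter. The same was so with the order of the day in place of the day, or with all probe sets fitted. Those settings say nothing about the 6 either. No paired analysis was possible because each day has 1 array and the arrays share no second replicate number.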
